A study of Arabidopsis thaliana with 6 samples.

Results

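A group of 40 genes of Arabidopsis thaliana was at least 10-fold lower in seedlings fed glutamate than in seedlings fed ammonium nitrate. The members were chosen by their measured levels: a nuclear gene entered when its mean on ammonium nitrate was at least 2 RPKM (a read count corrected for the length of the gene and the size of the library) and its mean on glutamate at most 0.1 of that. Of 33602 rows in the table, 18057 were nuclear genes of at least 2 RPKM on ammonium nitrate, and 48 of these (0.266%) met both limits. The rule left out 8 of the 48, among them the nitrate reductase gene NIA1, which leaves 40. Since the levels chose the members, their differences between the groups are given as a description and carry no test.

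The study looked for genes regulated by glutamate in seedlings. Both groups were whole seedlings of the Columbia (Col) ecotype with no mutation or transgene named. After 2 days in the cold they were kept at 22 °C for 12 days under a daily cycle of 16 h light and 8 h dark. Their agar held nitrogen-free Murashige and Skoog salts at 1/2 strength and 0.5% sucrose. To this one group received 5 mM NH4NO3 and the other 5 mM Glu, with 3 libraries each. Each ammonium nitrate unit carries 2 nitrogen atoms, so that the amount of nitrogen, its source and the absence of nitrate and of ammonium cannot be told apart. Nothing in the labels ties the libraries to separate plates or cultures, so the p-values below reflect spread among samples that may be technical.

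Nitrate is both a nutrient and a signal in plants. Root transporters take it up, nitrate reductase and nitrite reductase turn it into ammonium, and NLP transcription factors switch on a set of primary response genes within minutes of its arrival. That set includes the reductases, transporters, and the repressors LBD37, LBD38, LBD39 and the HRS1/NIGT1 family, which damp the nitrogen response again. Glutamate is the amino acid through which ammonium enters organic compounds, and it also acts as a signal that changes root growth.

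Sequences of a few members are shown here because the results return to them: the DNA before the start of members that share a known binding motif, and the mature microRNAs of the MIR169 loci. All were read from the RefSeq genome and annotation of TAIR10.1. The submitters name TAIR10, and the deposited table holds no coordinates. The 250 bases before the annotated start of HRS1 and of AT3G25790, a myb-like factor whose closest relative is HRS1, each hold the palindrome GAATATTC, the motif of NIGT1 factors, printed in capitals. They lie on the plus strand at chr1:4556628-4556877 and chr3:9412802-9413051.

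HRS1 (AT1G13300): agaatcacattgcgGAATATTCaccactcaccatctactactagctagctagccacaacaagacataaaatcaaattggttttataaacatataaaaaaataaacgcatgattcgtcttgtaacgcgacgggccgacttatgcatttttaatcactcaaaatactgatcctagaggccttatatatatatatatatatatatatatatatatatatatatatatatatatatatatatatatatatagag

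AT3G25790: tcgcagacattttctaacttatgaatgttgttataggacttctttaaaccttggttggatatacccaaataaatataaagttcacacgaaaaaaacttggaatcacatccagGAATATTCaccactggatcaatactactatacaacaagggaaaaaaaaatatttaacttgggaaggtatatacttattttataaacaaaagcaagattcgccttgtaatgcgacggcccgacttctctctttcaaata

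The 250 bases before AT3G25190 (VTL5, a vacuolar iron transporter-like protein; chr3:9174148-9174397, plus strand) and before AT4G15680 (a glutaredoxin-like gene; chr4:8931367-8931616, plus strand) hold the motif TGACNCTT, one part of the nitrate-responsive element. The capitals mark it, and in AT4G15680 it reads on the other strand.

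AT3G25190: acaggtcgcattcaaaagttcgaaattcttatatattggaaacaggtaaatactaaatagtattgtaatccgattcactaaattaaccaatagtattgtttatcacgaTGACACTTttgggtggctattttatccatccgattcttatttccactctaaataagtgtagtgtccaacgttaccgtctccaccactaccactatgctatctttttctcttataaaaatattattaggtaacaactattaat

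AT4G15680: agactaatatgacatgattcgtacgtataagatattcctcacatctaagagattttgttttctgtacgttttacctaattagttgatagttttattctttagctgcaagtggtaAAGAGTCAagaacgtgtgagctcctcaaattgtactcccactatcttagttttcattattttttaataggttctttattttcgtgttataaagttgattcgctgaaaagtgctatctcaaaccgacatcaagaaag

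A group of 3 members lies at MIR169 loci, whose microRNAs direct the cleavage of NF-YA transcription factor mRNAs. The mature miR169m (minus strand, chr3:9878318-9878338) and miR169a (minus strand, chr3:4359182-4359202) share the seed, bases 2 to 8, in capitals.

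miR169m: uAGCCAAGgaugacuugccug

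miR169a: cAGCCAAGgaugacuugccga

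Reads per gene were recovered from the steps of the RPKM values, and libraries held 49520259 to 63424604 reads. In RPKM, 1 read of a 1 kb gene corresponded to 0.0152 to 0.0211, and a count of 0, which leaves room for 3 reads, to at most 0.0455 to 0.0633. These floors cover counting error only and take each read as a separate count. They are too low if both mates of a fragment were counted. The 40 genes together took 0.105% to 0.118% of the reads on ammonium nitrate and 0.00545% to 0.00682% on glutamate. All 7 shoot markers and 13 root markers were detected in every library, as the label of whole seedlings implies. The summed level of the shoot markers was 31070, 31170 and 33130 RPKM (lowest, median and highest library) on ammonium nitrate and 13060, 14460 and 14920 on glutamate. By limma on log2(RPKM + 1), with a Benjamini-Hochberg adjusted p under 0.05 over 20032 tested genes, 6 of 7 fell, where 36.8% of all tested genes fell and 35.0% rose. The root markers summed to 112, 141 and 149 RPKM against 199, 214 and 226, and 10 of 13 rose. Of the rest, SCR fell from 11.7 to 8.68 RPKM, and SHR and CASP5 did not pass. The 4 stomatal lineage markers, all of which fell, summed to 40.4, 43.3 and 43.8 RPKM against 13.2, 14.3 and 14.6. The 3 trichome markers summed to 5.04, 5.95 and 6.10 RPKM against 3.24, 3.48 and 3.89, and the 1 with enough signal to be tested fell. The part of these shifts in the values below was not tested, and in whole seedlings fewer cells of a type and less RNA per cell cannot be told apart.

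**Figure D1:**
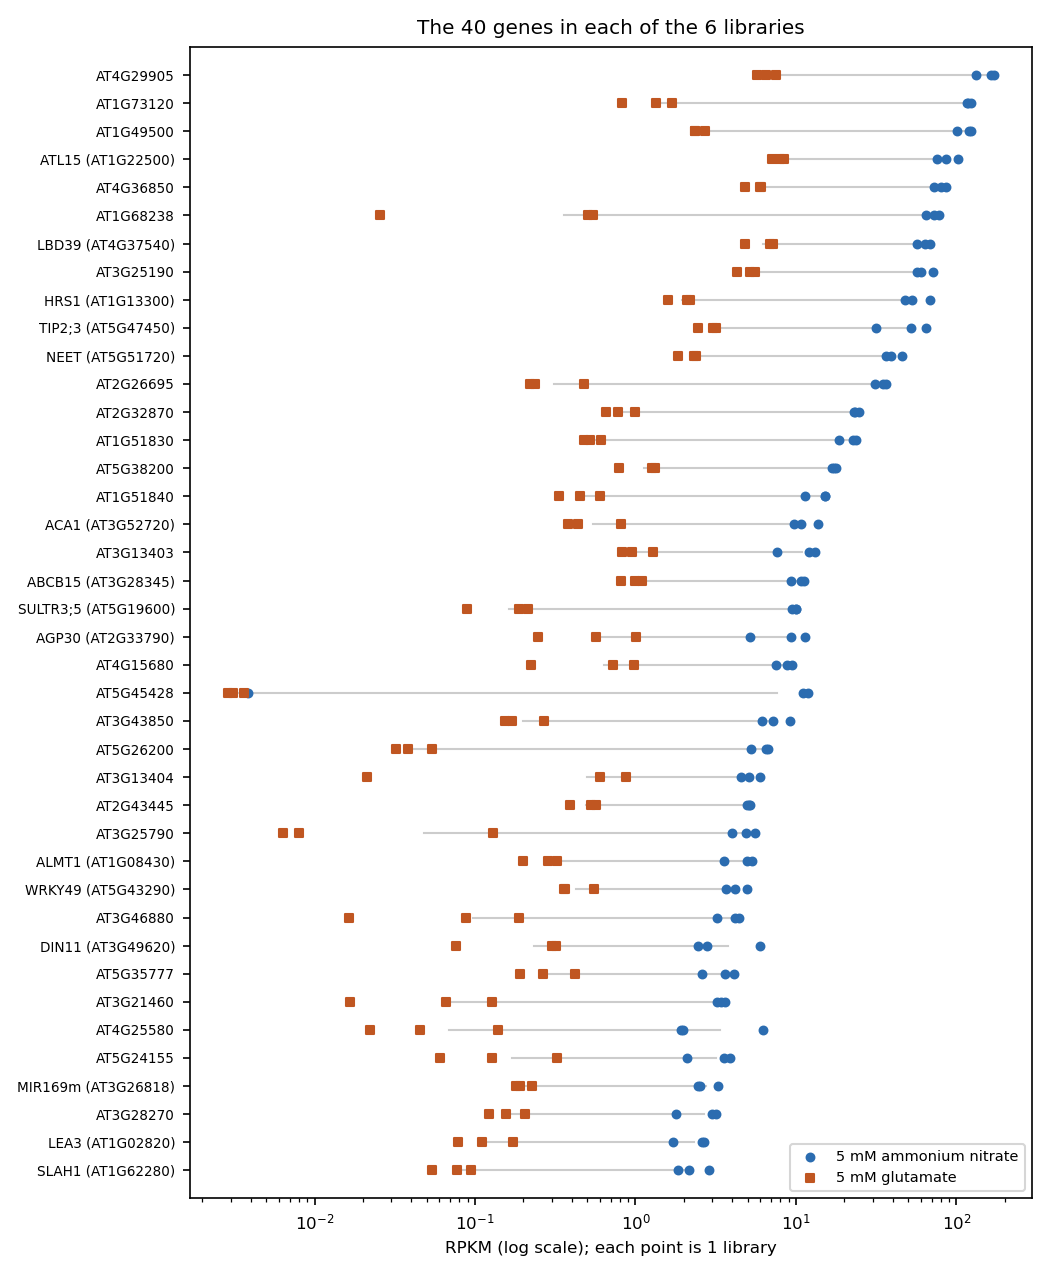
RPKM of each of the 40 genes on a log axis, ordered by level on ammonium nitrate; each circle is 1 ammonium nitrate library, each square 1 glutamate library, and the line joins the group means. The space between circles and squares follows from the choice of members; a library with 0 reads is drawn at the 0.5 read that the table adds to each gene.

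Levels on ammonium nitrate ranged from 2.29 RPKM (SLAH1) to 156 RPKM (AT4G29905). Of the 40 genes, 9 had at least 50 RPKM there and 21 had under 10, while on glutamate 28 were under 1 RPKM. The median ratio of the group means was 19.0, with 21 genes under 20-fold and, leaving out AT5G45428, 4 at 100-fold or more. The members were short: their median length was 1.07 kb against 1.53 kb for nuclear genes of at least 2 RPKM, and 45.0% of them were under 1 kb against 23.2%. Of the 40, 37 encode proteins, and chromosomes 1 to 5 hold 10, 4, 12, 5 and 8 of the 39 that the annotation places. Values of single genes follow in the order of libraries 1, 2 and 3, in RPKM, and ratios are of group means. In 39 members every glutamate library lay under every ammonium nitrate library, as in 41.9% of all nuclear genes of at least 2 RPKM. A cut of 10-fold between the means nearly fixes this, so nothing is read from it. The exception is AT5G45428, described last. Genes were grouped by role after their values were seen.

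The 4 transcription factor genes had ratios from 10.01 to 100. LBD39 (AT4G37540), a repressor of nitrogen-responsive genes and of anthocyanin synthesis, stood at 68.1, 56.5 and 63.7 RPKM on ammonium nitrate and 7.17, 4.79 and 6.84 on glutamate. With a ratio of 10.01 LBD39 was the member nearest the limit. HRS1, a GARP-type repressor that links nitrate and phosphate signals, had 68.4, 53.1 and 47.5 RPKM against 2.19, 2.09 and 1.60, a ratio of 28.7. Its relative AT3G25790 was lower in level and steeper in ratio: 5.53, 4.87 and 4.01 RPKM against 0.129, 0.00803 and 0.00635, or 100-fold. Only glutamate library 1 held reads of AT3G25790, 9 in all, and the other glutamate libraries held 0. Without glutamate library 2 or 3 the ratio of AT3G25790 was 70.8 or 69.9. Without library 1 the gene would be at least 111-fold lower, counted against a floor of 3 reads in each remaining glutamate library. If both mates of a fragment were counted, that floor is too low and the bound of 111-fold too high. WRKY49 (AT5G43290), a zinc-binding transcription factor of the WRKY family, had 3.66, 4.94 and 4.19 RPKM against 0.365, 0.360 and 0.549, a ratio of 10.03.

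Membrane transport was the largest group by role, with 8 genes and ratios from 10.7 to 149. TIP2;3 (AT5G47450), a vacuolar membrane channel for water and ammonia, was at 65.0, 51.8 and 31.6 RPKM on ammonium nitrate and 3.03, 2.44 and 3.17 on glutamate, 17.2-fold lower. Library 1 was the highest and library 3 the lowest on ammonium nitrate, with a coefficient of variation of 34.1%. AT3G25190 (VTL5) had 56.4, 60.0 and 71.0 RPKM against 5.55, 5.19 and 4.26, a ratio of 12.5. AT4G36850, a PQ-loop transmembrane protein, had 86.5, 80.0 and 72.5 RPKM against 6.01, 4.83 and 6.02, a ratio of 14.2. These were the 3 most abundant transport genes.

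Lower in level were carriers of anions and organic molecules. SULTR3;5 (AT5G19600), which assists sulfate transport from root to shoot, was at 10.02, 9.39 and 10.04 RPKM against 0.215, 0.187 and 0.0887, or 60.0-fold lower. AT5G26200, a mitochondrial substrate carrier, had 6.74, 5.22 and 6.5 RPKM against 0.0322, 0.0380 and 0.0541. Its ratio of 149 rests on 8 reads over the 3 glutamate libraries, and 87 bases of the gene overlap AL4 on the opposite strand. SLAH1 (AT1G62280), an anion channel subunit that works in loading chloride into the xylem, had 1.85, 2.14 and 2.88 RPKM against 0.0537, 0.0773 and 0.0945, a ratio of 30.5. Library 3 was the highest of the ammonium nitrate libraries in SLAH1. The other 2 transport genes were ALMT1 (AT1G08430), the malate channel of root aluminium tolerance, at 5.35, 3.54 and 4.95 RPKM against 0.286, 0.325 and 0.199 (17.1-fold), and ABCB15 (AT3G28345), an ABC transporter, at 11.2, 10.7 and 9.35 RPKM against 1.10, 0.816 and 0.996 (10.7-fold).

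Redox proteins and metabolic enzymes made up 7 genes with ratios from 13.4 to 48.7. Among them were 2 CC-type glutaredoxins, small plant-specific proteins that bind TGA transcription factors. AT4G15680 had 7.56, 8.73 and 9.44 RPKM on ammonium nitrate against 0.720, 0.223 and 0.978 on glutamate, a ratio of 13.4. AT3G21460 had 3.61, 3.43 and 3.20 RPKM against 0.127, 0.0167 and 0.0660, a ratio of 48.7 that rests on 6 glutamate reads. The ratio of AT3G21460 was 35.3 without glutamate library 2, which held 0 of these reads. Without glutamate library 1, which held most of the 6 reads, the ratio was 82.6 on 2 reads. Its 95% counting interval was 30.1 to 199. The interval takes each read as a separate count and leaves out spread between libraries. It is too narrow if both mates of a fragment were counted. NEET (AT5G51720), an iron-sulfur cluster protein, was at 45.9, 38.8 and 36.4 RPKM against 1.85, 2.37 and 2.33, or 18.5-fold lower. AT5G38200, a class I glutamine amidotransferase-like protein, had 17.9, 17.2 and 16.7 RPKM against 1.33, 1.26 and 0.790, or 15.3-fold lower.

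ACA1 (AT3G52720), here an alpha carbonic anhydrase, an enzyme that interconverts carbon dioxide and bicarbonate, had 10.8, 9.78 and 13.8 RPKM against 0.807, 0.437 and 0.379 (21.1-fold). DIN11 (AT3G49620), a dark-inducible oxygenase, had 6.00, 2.45 and 2.78 RPKM against 0.318, 0.302 and 0.0756 (16.1-fold). The high ammonium nitrate library 1 gave DIN11 a coefficient of variation of 52.4%. AT5G24155 is named an oxidoreductase, but its protein has 121 residues against 517 in its closest homolog, SQE6. AT5G24155 had 3.57, 2.10 and 3.87 RPKM against 0.324, 0.127 and 0.0604 (18.6-fold), on 10 glutamate reads. Without glutamate library 3 the ratio of AT5G24155 was 14.1 on 9 reads. Without glutamate library 1 it was 33.9 on 3 reads, with a 95% counting interval of 13.9 to 83.7. This interval also takes each read as a separate count and may be too narrow. ACA1 overlaps the long noncoding RNA gene AT3G08280 on the opposite strand by 303 bases, and this gene has no row in the table. Without a stated use of strand, reads of both genes cannot be told apart.

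A further 4 genes encode proteins of the kinds that mark others for breakdown or bind them. AT1G73120, an F-box protein, was the second most abundant member: 124, 116 and 119 RPKM on ammonium nitrate against 1.69, 0.819 and 1.34 on glutamate, or 93.4-fold lower. ATL15 (AT1G22500), a membrane-bound RING-type ubiquitin ligase, had 102, 76.0 and 86.4 RPKM against 7.92, 7.12 and 8.38, 11.3-fold lower. AT2G32870, a TRAF-like protein, had 23.0, 24.6 and 23.3 RPKM against 0.989, 0.656 and 0.781, 29.2-fold lower. In ATL15, 83 bases overlap AT1G22510 on the opposite strand, a gene whose level rose from 9.57 to 19.4 RPKM. A further 548 of its 1425 bases overlap the long noncoding RNA gene AT1G05753 on the opposite strand, which has no row in the table, so reads of both may be counted in ATL15. AT2G43445, an F-box protein, had 5.18, 5.07 and 4.95 RPKM against 0.567, 0.525 and 0.392, close to the limit at 10.2-fold.

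The adjacent genes AT1G51830 and AT1G51840 on chromosome 1 encode a leucine-rich repeat receptor kinase and a kinase-like protein. AT1G51830 had 23.8, 22.8 and 18.4 RPKM on ammonium nitrate against 0.606, 0.475 and 0.521 on glutamate, or 40.6-fold lower. AT1G51840 had 15.2, 15.1 and 11.3 RPKM against 0.605, 0.335 and 0.449, or 29.97-fold lower. In both genes library 3 was the lowest on ammonium nitrate.

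The 3 dehydration-related or cell wall genes were lower in level. AT4G25580, a CAP160 protein of the cold and drought-induced kind, had 1.97, 6.20 and 1.92 RPKM against 0.139, 0.0222 and 0.0456. Library 2 made its mean, and without that library its ammonium nitrate mean fell under the 2 RPKM limit. Its ratio of 48.7 became 28.2 without ammonium nitrate library 2 and 99.2 without glutamate library 1. LEA3 (AT1G02820), a late embryogenesis abundant protein, had 2.58, 2.66 and 1.72 RPKM against 0.172, 0.0780 and 0.111, or 19.3-fold lower. AGP30 (AT2G33790), an arabinogalactan protein of the root cell wall, had 11.4, 9.33 and 5.19 RPKM against 1.01, 0.246 and 0.568, or 14.2-fold lower. The coefficient of variation over the ammonium nitrate libraries was 73.0% for AT4G25580 and 36.8% for AGP30.

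The remaining 9 genes have no clear role in the annotation, and among them were the most abundant members. AT4G29905, an uncharacterized protein, had 171, 163 and 133 RPKM on ammonium nitrate against 7.47, 5.68 and 6.48 on glutamate, a ratio of 23.8. AT1G49500, named a TFIID subunit 1b-like protein, had 123, 119 and 100 RPKM against 2.72, 2.34 and 2.34, a ratio of 46.3. AT1G68238, uncharacterized, had 77.7, 64.1 and 72.5 RPKM against 0.543, 0.0256 and 0.506, a ratio of 200, the highest of those given. All 3 proteins are short, with 67, 63 and 65 residues in the order named, and glutamate library 2 held no read of AT1G68238. AT2G26695, a zinc finger protein of the Ran-binding kind, had 36.4, 31.0 and 34.8 RPKM against 0.236, 0.220 and 0.476, 110-fold lower. The uncharacterized AT3G43850 had 6.16, 9.15 and 7.21 RPKM against 0.170, 0.153 and 0.271 (37.9-fold), and AT3G46880 had 4.40, 3.22 and 4.20 RPKM against 0.0881, 0.187 and 0.0164 (40.6-fold). AT3G46880 rests on 6 glutamate reads, and without glutamate library 3, which held 0 of them, its ratio was 28.7. Without glutamate library 2 the ratio of AT3G46880 was 75.4 on 2 reads. The 95% counting interval of that ratio was 27.5 to 182. It takes each read as a separate count and may be too narrow. The DUF677 gene AT3G28270 had 3.00, 1.80 and 3.19 RPKM against 0.157, 0.205 and 0.123 (16.5-fold), and the pseudogene AT5G35777 had 2.59, 4.12 and 3.60 RPKM against 0.418, 0.191 and 0.264 (11.8-fold).

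AT5G45428 differs from the rest. Its largest share of multiply mapped reads was 1.0. It held 0, 1477 and 1434 reads on ammonium nitrate and 0, 0 and 0 on glutamate, and the groups thus overlap. The annotation used here does not place it, and no ratio is given. It was 1 of 4 members with multiply mapped reads, the others being AT3G13403, AT3G13404 and, with a share of 0.000445, AT1G51830.

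The limits of the rule fell within runs of similar genes. Just inside the ratio limit were LBD39, WRKY49 and AT2G43445 at 10.01, 10.03 and 10.2, and just outside were AT1G68110 at 9.81, AT4G15670 at 9.65 and the senescence and dark-induced gene SEN1 (AT4G35770) at 9.57. SEN1 was measured at 507 ± 163 RPKM (SD, n = 3) on ammonium nitrate and at 53.0 ± 2.57 on glutamate, a higher level than any member in both groups. Just inside the level limit were SLAH1, LEA3 and AT3G28270 at 2.29, 2.32 and 2.66 RPKM, and just outside were MIR169a, AT3G05950 and AT5G10040 at 1.85, 1.85 and 1.77 RPKM. Leaving out 1 library at a time took 8 members past a limit in at least 1 case, namely LBD39, WRKY49, AT2G43445, ABCB15, AT3G13403, AT3G13404, SLAH1 and AT4G25580. The rule has a mirror image of 323 nuclear genes that were at least 10-fold higher on glutamate with at least 2 RPKM there.

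Closest homologs that were themselves members are left out of the set described next, which was measured in the same libraries with the same scaling and is no independent support. Translated RefSeq proteins of 37 members were compared by blastp, and 32 had a homolog at an E-value of at most 1e-10. Of 29 distinct homologs outside the 40 genes, 23 had a mean of at least 1 RPKM and were tested with limma, as above. On glutamate 12 of the 23 fell and 7 rose, while 4 did not pass; their median log2 fold change was -0.44. Of all genes tested 36.8% fell and 35.0% rose, with a median of -0.02.

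Among the 12 relatives that fell were those of the channel, the LBD repressor and the TRAF-like and TFIID-like members. TIP2;2 (AT4G17340), 93.1% identical to TIP2;3, fell from 211 ± 51.4 to 28.9 ± 1.58 RPKM (SD, n = 3), with a log2 fold change of -2.80 ± 0.16 (SE) and a limma adjusted p of 2.15e-06. LBD38 (AT3G49940) fell from 115 ± 8.35 to 24.4 ± 7.55 RPKM. AT2G32880, the relative of AT2G32870, fell from 24.8 ± 2.27 to 5.11 ± 0.803 RPKM, and AT3G19030, that of AT1G49500, from 232 ± 17.6 to 71.8 ± 10.2 RPKM. AT4G15670, 94.1% identical to AT4G15680, fell with a log2 fold change of -1.61. The others that fell were AT5G59080 (-0.87), SAG21 (-0.71), AT1G72820 (-0.62), AT5G21940 (-0.54), AT3G15680 (-0.44) and AT2G43440 (-0.44), with log2 fold changes in brackets. AT14A (AT3G28290), the relative of AT3G28270, also fell, but its largest share of multiply mapped reads was 1.0 and its value is uncertain.

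Other relatives rose where the member was lower. SLAH4 (AT1G62262), 82.0% identical to SLAH1, rose from 0.855 ± 0.0903 to 11.3 ± 1.35 RPKM, with a log2 change of 2.73 ± 0.10 (SE, limma adjusted p = 1.97e-07). AT5G57123, 73.1% identical to AT4G29905, rose from 0.405 ± 0.191 to 5.78 ± 0.310 RPKM (limma adjusted p = 9.49e-07). ACA2 (AT2G28210), only 38.7% identical to the carbonic anhydrase ACA1, rose from 1.08 ± 0.367 to 4.12 ± 0.210 RPKM. AT1G51850, 83.0% identical to AT1G51830, rose from 9.59 ± 0.202 to 19.5 ± 2.49 RPKM. In each of these pairs the more abundant gene on ammonium nitrate was the member, and on glutamate it was the relative, except AT4G29905, which at 6.54 RPKM remained slightly above AT5G57123. SULTR3;1, SQE6 and AT1G51820 rose by less, with log2 fold changes of 0.46, 0.46 and 0.31. The relatives of ATL15, AT4G36850, WRKY49 and AGP30 did not pass the test.

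**Figure D2:**
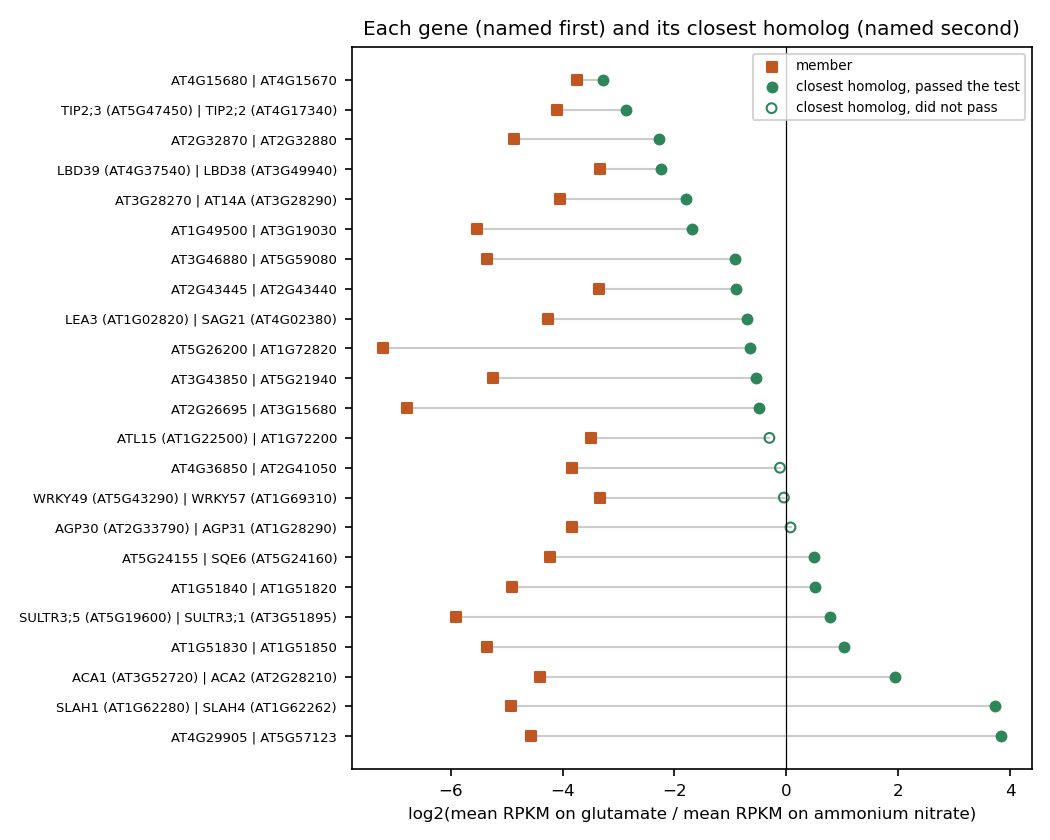
log2 ratio of mean RPKM on glutamate to that on ammonium nitrate for members (squares) and their closest homologs outside the group (circles, filled where limma's test passed), 1 pair per row. The squares lie left of -3 by the choice of members; the circles run from relatives that fell, such as AT4G15670 and TIP2;2, to SLAH4 and AT5G57123, which rose. Only the 23 tested homologs are drawn; AT1G08440, the closest homolog of ALMT1, had 0.0158 RPKM on ammonium nitrate and 0.506 on glutamate, under the level needed for the test.

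HRS1 and AT3G25790 were each other's closest homologs, with 57.1% identity, and AT3G21460 was closest to AT4G15680 with 60.8%. The DNA before HRS1 and AT3G25790 also held shared stretches, found after their values were seen. The 15 bases GGAATATTCACCACT occur in both, from position -237 in HRS1 and -139 in AT3G25790, where the annotated start is 0. A window of 35 bases, shown with identical bases in capitals, matched at 30 of 35 positions.

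HRS1 from -149: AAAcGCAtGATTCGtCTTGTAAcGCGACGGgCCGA

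AT3G25790 from -52: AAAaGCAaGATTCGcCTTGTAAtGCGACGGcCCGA

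Among 741 pairs of member promoters, the best window of that length matched at a median of 21 positions. The overlapping genes AT3G13403 and AT3G13404 matched at 35, and the pair next after HRS1 and AT3G25790 matched at 26.

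A set of 10 known plant motifs were searched on both strands in the 39 placed promoters, from 250 bases before to 50 after the start, and in all 32834 promoters of that length. GAATATTC was in 3 member promoters (7.69%, against 0.959% of all promoters), those of HRS1 at -236, AT3G25790 at -138 and ACA1 at -3. The matches in HRS1 and AT3G25790 lie within the 15 bases that these homologs share, so they are not separate cases. That in ACA1 spans the annotated start. TGACNCTT was in 2 (5.13% against 3.36%), those of AT3G25190 and AT4G15680 printed above. The G-box CACGTG was in 5 (12.8% against 6.90%), among them AT1G73120, SLAH1 and DIN11. CCGAC, the core of the dehydration and cold element, was in 9 (23.1% against 15.6%), and the TATA box TATAAA in 25 (64.1% against 50.05%). GATAAG was in 6 (15.4% against 14.97%), TTGACC in 4 (10.3% against 13.7%) and TGTCTC in 2 (5.13% against 14.04%). AGATACG and AAATATCT were in none, against 1.99% and 5.29% of all promoters. All promoters include those of silent and noncoding genes. Among the 17545 promoters of protein-coding nuclear genes of at least 2 RPKM on ammonium nitrate, CACGTG was in 8.755% and GAATATTC in 1.05%. There TGACNCTT was in 3.34%, CCGAC in 16.3% and TATAAA in 51.6%. In the member promoters no match of one motif overlapped a match of another. These shares describe letters in 39 windows and say nothing of binding.

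**Figure D3:**
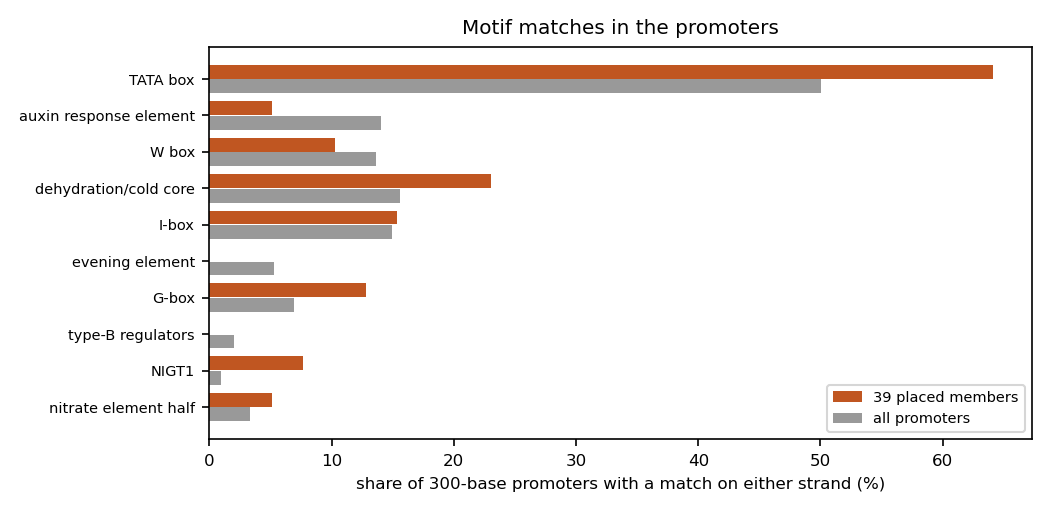
Share of 300-base promoters, in percent, with at least 1 match of each of 10 motifs on either strand, for the 39 placed genes (orange) and for all promoters (grey). The GAATATTC bar stands at 7.69% against 0.959%, and the evening element and type-B regulator motifs have no match among the 39. The GAATATTC matches of HRS1 and AT3G25790 lie in a stretch that both share.

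Genomic neighbours differed from locus to locus. The next gene on each side that was no member gave 40 tested genes, of which 16 fell and 14 rose on glutamate with a median log2 fold change of -0.06, beside 36.8% and 35.0% of all tested genes. With the next 3 genes on each side, 66 of 145 tested genes fell (45.5%) and 48 rose (33.1%), with a median of -0.12. AT4G15680 lies in a run of glutaredoxin genes that fell together by limma's test: AT4G15660 from 4.33 to 0.773 RPKM, AT4G15670 from 2.97 to 0.308, AT4G15690 from 15.2 to 2.35 and AT4G15700 from 20.6 to 6.98. Their log2 fold changes lay between -2.28 and -1.45. AT2G32880, beside AT2G32870, fell as well. The kinase pair had the opposite surroundings: AT1G51805, AT1G51820, AT1G51850 and AT1G51860 all rose, AT1G51860 from 8.22 to 16.3 RPKM. AT1G51820 no longer passed with the replicate number in the model or in 4 of the 6 fits that left out 1 library, with log2 fold changes of 0.25 to 0.31.

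MIR169m (AT3G26818), the precursor of the first microRNA printed above, was at 2.44, 2.54 and 3.27 RPKM on ammonium nitrate and 0.192, 0.226 and 0.179 on glutamate, 13.8-fold lower. These values rest on 84 against 6 reads in all and measure the precursor transcript, not the mature microRNA. In the same cluster MIR169k fell from 1.88 to 0.316 RPKM (57 against 11 reads, log2 fold change -1.15, limma adjusted p = 9.52e-04). Its glutamate libraries had 0.726, 0.0450 and 0.178 RPKM, so that library 1 held most of its glutamate signal. MIR169i, MIR169j, MIR169l and MIR169n had at most 5 reads in either group. The mature sequence is the same at all 6 loci of the cluster. On one side the next 3 protein genes, AT3G26820, PAD3 and PES2, rose, PAD3, a camalexin synthesis gene, from 9.47 to 117 RPKM. Genes beyond the other end of the cluster were not examined. At the other locus the genes AT3G13403, named a defensin-like protein, and AT3G13404 overlap by 290 bases on the strand of MIR169a, and AT3G13404 overlaps MIR169a by 14 bases. AT3G13403 had 12.1, 7.59 and 13.2 RPKM against 1.28, 0.827 and 0.947 (10.8-fold). AT3G13404 had 5.10, 5.99 and 4.52 RPKM against 0.876, 0.0213 and 0.602 (10.4-fold). The ratio of AT3G13404 became 16.7 without glutamate library 1. It became 7.045, under the limit, without glutamate library 2, which held 0 of its reads. Up to 71.4% of the reads of AT3G13403 and 25.2% of those of AT3G13404 were multiply mapped, so the split between these genes is uncertain. MIR169a itself had 1.85 RPKM on ammonium nitrate and 0.138 on glutamate, under the level limit of the rule.

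**Figure D4:**
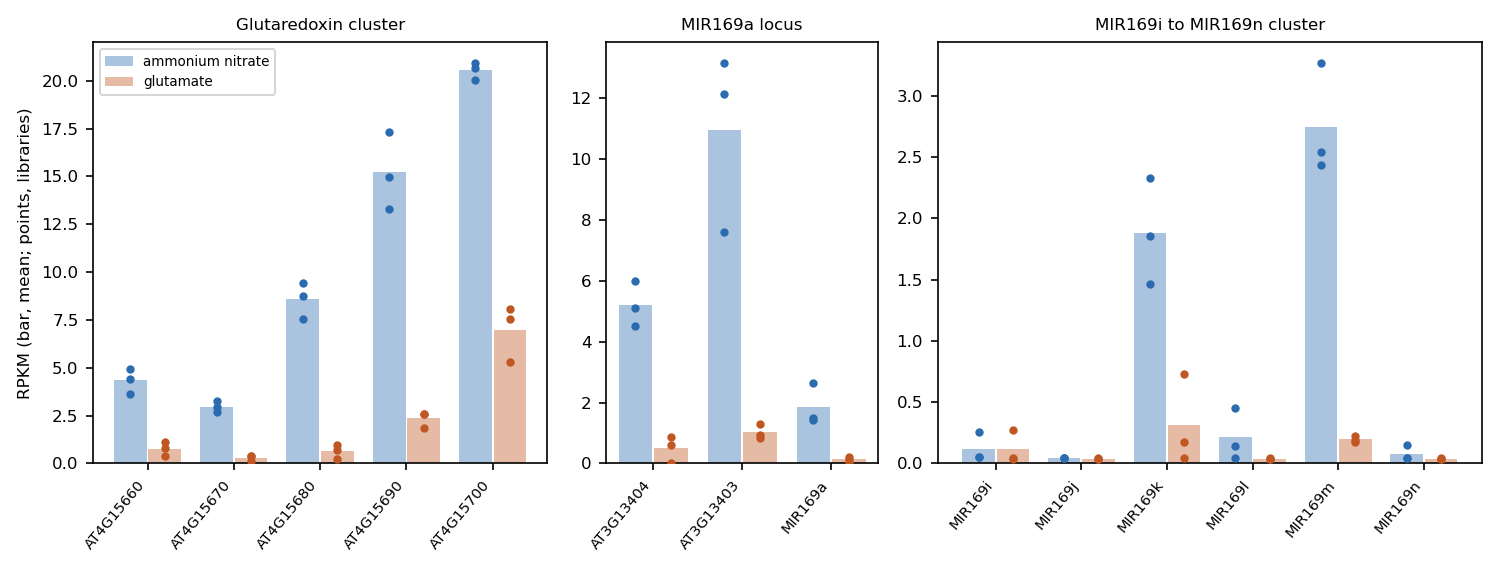
RPKM at 3 loci that hold members, with bars for the group means and points for the 3 libraries of each group; the scale differs between the panels. All 5 genes of the glutaredoxin run are lower on glutamate, as are AT3G13404, AT3G13403 and MIR169a, and MIR169k and MIR169m carry nearly all of the signal of their cluster.

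Other genes were taken from 11 lists. Only the primary nitrate response, CC-type glutaredoxin, transport and iron lists hold members. The primary nitrate response list held LBD39, HRS1 and AT3G25790 as members. Of its 22 other tested genes, 17 fell and 3 rose, beside 36.8% and 35.0% of all genes tested, while 2 did not pass. The median log2 fold change of the 22 was -0.69. Nitrate reductase NIA2 (AT1G37130) fell from 540 ± 11.6 to 62.7 ± 5.05 RPKM (SD, n = 3), LBD37 from 70.1 ± 3.54 to 19.0 ± 3.94, and 2 further myb-like relatives of HRS1, AT1G68670 and AT1G25550, from 26.8 ± 1.05 to 6.11 ± 0.987 and from 85.2 ± 3.43 to 40.2 ± 5.10. The genes that rose were CIPK8, AGL44 and WR3.

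The CC-type glutaredoxins split evenly, with 8 of 16 other tested genes lower and 8 higher, beside 36.8% and 35.0% of all genes tested. Those that fell included AT3G62930, from 19.4 ± 1.61 to 2.44 ± 0.524 RPKM, and those that rose included GRX480 (AT1G28480), a regulator in salicylic acid and jasmonate signalling, from 3.29 ± 1.13 to 53.7 ± 2.99 RPKM. The 5 genes of the run at AT4G15660 to AT4G15700 were all on the lower side. Of the type-A response regulators, which cytokinin induces and which hold no member, 6 of 10 fell and 2 rose. In the nitrate and potassium transport list, home of SLAH1, 6 of 17 other genes fell (35.3%) and 7 rose (41.2%). Over all genes tested these shares were 36.8% and 35.0%. SLAH2 and SLAH3, relatives of SLAH1, stood at 3.24 and 14.6 RPKM on ammonium nitrate and 4.02 and 13.3 on glutamate and did not pass.

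The iron list, which holds AT3G25190, had 10 of 23 other genes lower and 13 higher. Those that fell included genes of iron uptake: the regulator FRU (AT2G28160) from 12.2 ± 2.69 to 7.53 ± 0.788 RPKM, the transporter IRT1 from 9.04 ± 2.18 to 2.57 ± 0.422, the ferric reductase FRO2 from 2.72 ± 0.730 to 1.11 ± 0.173 and CYP82C4, an enzyme of coumarin synthesis, from 2.13 ± 0.519 to 0.335 ± 0.0238. The transporter IRT2 went the other way and rose from 2.3 ± 1.2 to 5.6 ± 2.4 RPKM. The iron storage genes FER1, FER3 and FER4 fell, FER1 from 130 ± 12.4 to 45.0 ± 1.66 RPKM, and the iron deficiency regulators bHLH38, bHLH39, BHLH100 and BHLH101 rose, bHLH39 from 6.73 ± 3.76 to 68.9 ± 8.70 RPKM. In the list of dark and sugar starvation, to which SEN1 belongs, 10 of 11 genes fell. In the cold and abscisic acid list 4 of 9 tested genes fell and 3 rose, in the clock list 2 of 9 fell and 6 rose, and in the flavonoid list 6 of 10 fell and 3 rose. Among other SAUR genes 32 of 55 fell and 15 rose, and among expansins 8 of 22 fell and 11 rose. Over all lists 109 of 204 other genes (53.4%) fell and 72 (35.3%) rose, beside 36.8% and 35.0% of all genes tested. These totals include the lists that hold no member, and SAUR genes alone make up 55 of the 204.

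**Figure D5:**
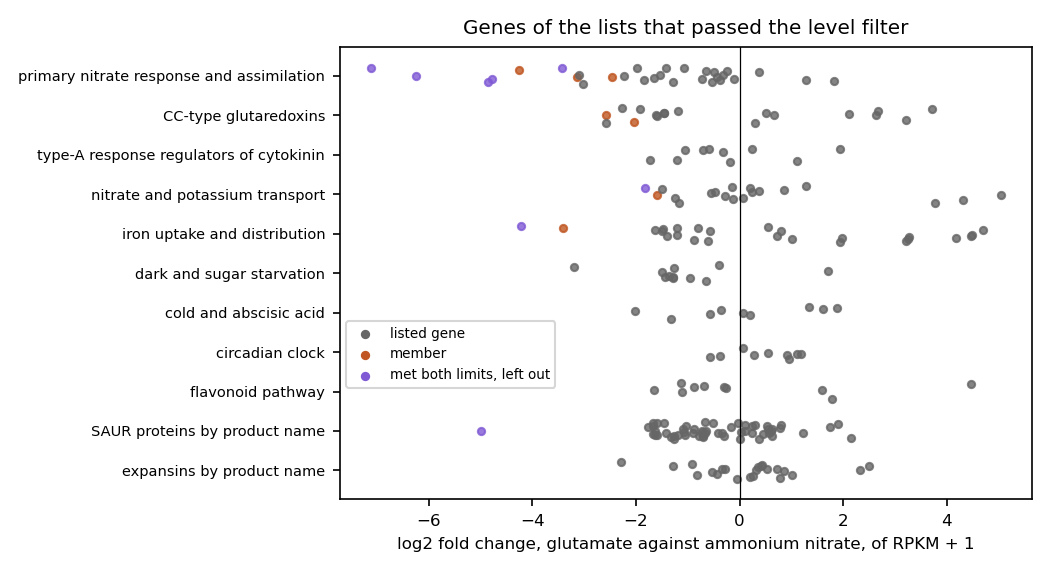
log2 fold change of RPKM + 1, glutamate against ammonium nitrate, for every tested gene of the 11 lists, 1 row per list; orange points are members, purple points met both limits but were left out by the rule, and grey points are the other listed genes. The nitrate response and starvation lists lie mostly left of 0, and the grey points of the iron list reach from -1.64 to 4.71.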

How the data were processed

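RNA of whole seedlings was sequenced, with 3 libraries for each nitrogen source. The deposited values are RPKM that the authors scaled with TMM, per the file headers and name, and their step sizes show 0.5 read added to each gene. The deposited table also gives a fraction per gene, by its name the largest share of multiply mapped reads, and gene lengths in kilobases. Per the submitters' processing notes, the build was TAIR10 and SAMtools was used; the aligner, the read counter and its use of strand are not given in the sources. Reads were recovered from the RPKM steps (within 0.05 read for at least 99.94% of genes without multiply mapped reads). They may count both mates of a fragment. Counting intervals and floors take each read as a separate count. If both mates were counted, the intervals are too narrow and the floors too low.

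The 40 members, the lists and the motifs were chosen with earlier results of these data known. Genes averaging 1 RPKM or more entered a limma test (limma 3.58.1, R 4.3.3, lmFit, eBayes with trend) on log2(RPKM + 1), two-sided, with Benjamini-Hochberg adjustment over 20032 genes at 0.05, and the script was tested on simulated data. The pseudocount understates changes of low genes. Sequences, coordinates, products and gene order came from RefSeq TAIR10.1, which holds 32835 of the 33602 identifiers. Proteins were compared with BLAST 2.17.0. Tables and plots were made in Python 3.11.15 with pandas 2.3.3 and matplotlib 3.10.9. Replicates differed by more than counting noise (chi-square per gene 11.1 to 16.9), and no library was a copy.

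The rule for names took the 15 members of highest level, the 10 of largest ratio, those on a list, beside another member or closest to one, and 3 genes on each side of each limit. The other members are named because all are accounted for, and further genes were named after their values were seen. Alternatives covered the scaling, the limits of the rule, the level filter, the pseudocount, the replicate block, multiply mapped reads, the homolog and neighbour definitions, the promoter window and leaving out each library.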

Additional observations from a re-analysis of the deposited data

How the results depend on the processing

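The number of members was 34 with equal totals per library, a scaling that raised the median gene on glutamate by 0.11 on the log2 scale. All 34 were among the 40, and those lost were LBD39, WRKY49, AT2G43445, ABCB15, AT3G13403 and AT3G13404. The level limit gave 48 genes at 1 RPKM and 27 at 5 RPKM, and the ratio limit gave 53 at 8-fold and 32 at 12-fold. Medians gave 41 genes, of which 35 were shared, taking off the 0.5 read gave 41, and leaving out genes with multiply mapped reads gave 36. Without 1 library at a time 39 to 44 genes met the rule, 35 to 39 of them shared with the 40. LBD39 was lost without ammonium nitrate library 1 or 3 or glutamate library 2, and WRKY49 without ammonium nitrate library 2 or glutamate library 1 or 2.

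Closest homologs that rose numbered 3 with a minimum of 5 RPKM, against 7, since fewer genes were tested. With the next 3 genes on each side, 66 of 145 tested neighbours fell (45.5%) and 48 rose (33.1%), against 16 and 14 of the 40 next to a member. With equal totals 5989 of all genes fell and 8452 rose. AT1G72200, the relative of ATL15, passed as lower without ammonium nitrate library 3 (log2 fold change -0.41, limma adjusted p = 0.0039). GAATATTC was in 2 promoters when the 50 bases after the start were left out, and the G-box count stayed at 5.

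Deviations of same-numbered libraries correlated at 0.14, 0.083 and 0.041, so the numbers were not taken to pair the samples, and not every library correlated best with its own number. With the replicate block 7265 genes fell and 6929 rose, against 7377 and 7013, and 12 homologs fell and 6 rose. Read depth limits the lowest values: 7 members had at most 10 reads over the 3 glutamate libraries, and 6 had a glutamate library with 0 reads.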
